A study of Homo sapiens with 6 samples.

Results

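The genes described here are 57 genes of DNA replication and of the entry into S phase, the G1/S transition. They were taken by symbol from a list of names and not by a threshold on measured values, and all 57 were present among the 26484 genes of each count table. All 57 also passed the filter on low counts, which left 11517 genes to test. By role, 49 of them encode the replication machinery and 8 are G1/S regulators.

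RNA was sequenced from MCF10CA1a cells, a malignant human breast epithelial line of the MCF10A lineage, grown on Petrisoft hydrogel dishes of 500 Pa (soft) or 8000 Pa (stiff). Both groups shared the cell line, a growth factor-reduced Matrigel coat at 0.14 mg/ml, DMEM/F12 medium with 5% horse serum, a medium change on day 4 and RNA isolation with TRIzol on day 5. Each stiffness had 3 libraries, numbered 1 to 3 and called biological triplicates. The labels describe the RNA both as cytosolic and as total, and the study rests on 1 cell line.

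Before S phase, the origin recognition complex with CDC6 and CDT1 loads the MCM2-7 helicase onto DNA, a step called licensing, and geminin (GMNN) holds CDT1 in check afterwards. CDC45 and the GINS complex turn the loaded helicase on, and the polymerases then copy DNA at a fork that carries the sliding clamp PCNA, its loader RFC and the single-strand binding protein RPA. Cyclin E with its kinase and E2F transcription factors drive the transition, and many replication genes are textbook E2F targets.

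The smallest library held 8305601 counts and the largest 18779742. On the scale of TMM-scaled CPM (counts scaled by library depth to a common total) a single-library floor of 3 counts came to 0.168 to 0.429 CPM. The epithelial markers (KRT8, KRT18, KRT5, KRT14, EPCAM and CDH1) summed to between 12807 and 23115 CPM at 500 Pa and between 9976 and 19412 CPM at 8000 Pa. Fibroblast markers summed to 0.95 to 1.86 CPM and 0.959 to 4.64 CPM, adipocyte markers to at most 1.01 CPM, and leukocyte markers to 10.2 to 15.03 CPM and 14.1 to 23.5 CPM with the defining leukocyte gene PTPRC at 0 counts. Endothelial markers summed to 92.8 to 149.6 CPM and 208.9 to 251.6 CPM, of which PECAM1 made up most. CDH5, another gene of that list, stood at 1.12, 3.47 and 3.14 CPM at 500 Pa and 4.71, 10.2 and 16.1 CPM at 8000 Pa, without overlap between the groups, while VWF and KDR had 7 and 9 counts over all 6 libraries. The part of these markers in the values below was not tested. In bulk RNA, a different share of cells in S phase and a different amount of RNA per such cell cannot be told apart.

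The comparison asked whether the replication program differed between soft and stiff gels. All 57 genes were expressed on both, and none passed the test. In edgeR's quasi-likelihood test with Benjamini-Hochberg adjustment over all 11517 genes, 0 of 57 members were called, beside 0.0% of all genes, and the adjusted p of each member was 1.0. At an unadjusted p under 0.05, 1 member (POLD2, 1.75%), lower at 8000 Pa, stood beside 2.45% of all genes, and 0.981% of all genes were lower by that rule. In the paired fit, which adds the replicate number as a block, 0 of 57 were called beside 0.53% of all genes, and the smallest adjusted p was 0.117, for POLD2. At an unadjusted p under 0.05 the paired fit held 5 members (8.77%), beside 10.6% of all genes. GINS1 was the 1 with a value higher at 8000 Pa (all genes 4.49%), and CDT1, MCM5, GINS2 and POLD2 were the 4 with lower values (all genes 6.12%). DESeq2 called 0 members with or without the block.

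Fold changes below are log2 of 8000 Pa over 500 Pa from the unpaired edgeR fit. Their standard error (SE) was derived from the fold change and the F statistic of the test, and the 95% intervals rest on it. Of the 57 fold changes, 36 lay above 0, and they ran from -0.79 (POLD2) to 0.48 (GINS1) with a median of 0.07. The median over all tested genes was 0.01. The size of the change, regardless of sign, had a median of 0.17 among members and 0.24 among all genes. Members were also more abundant, with a median of 52.0 mean CPM against 16.4 among all genes. The part of abundance in the sizes was not tested. For 35 of 57 members the 95% interval of the fold change lay wholly inside a 2-fold difference either way. Counts were also simulated on the depth and spread of these libraries. Of genes given a 2-fold change, 23% were called unpaired and 71% paired, and of genes given a 4-fold change 98% and 100%. The changes were placed only in genes above a set mean CPM, which the least abundant members such as CCNE1 do not reach. The replicate effect was assumed and no GC trend was added, so these shares are not the power for every member. In that simulation, 2-fold differences were mostly not detected in the unpaired fit at this number of libraries, and smaller ones were not tried.

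**Figure D1:**
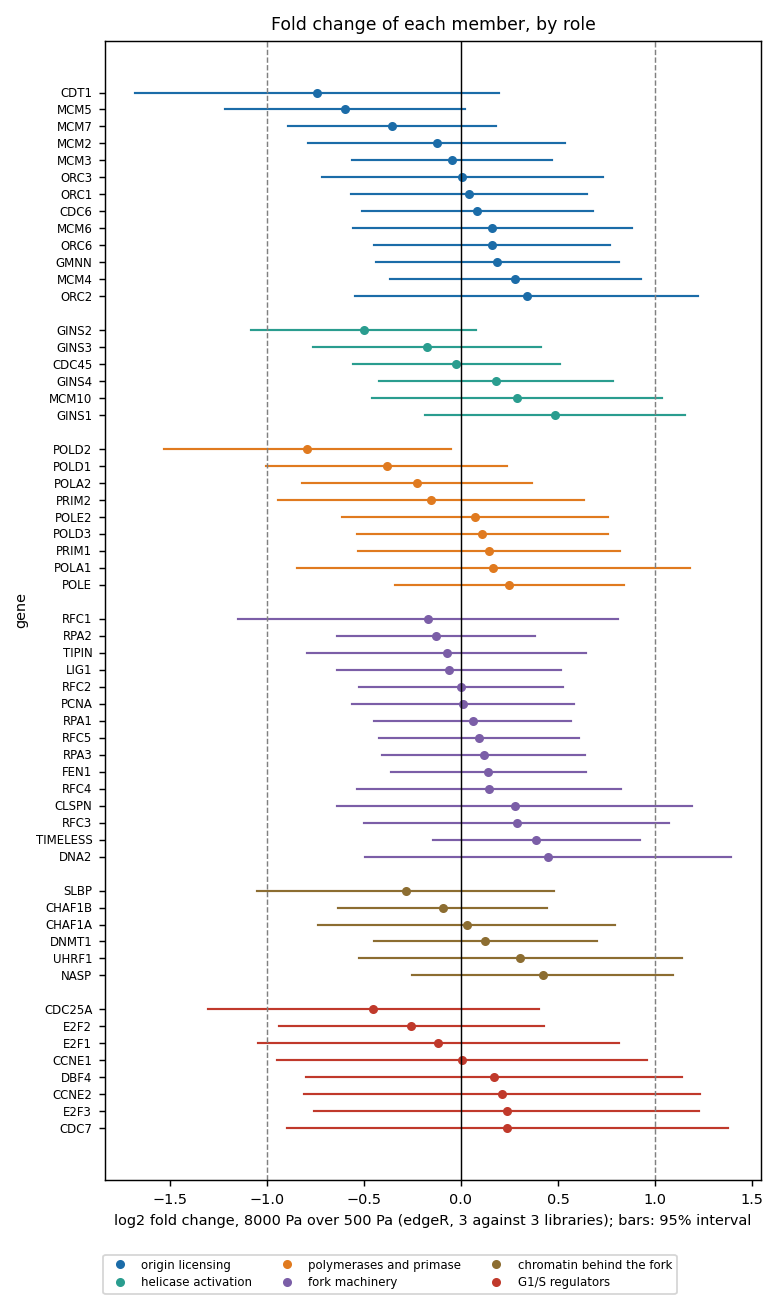
Log2 fold change of each of the 57 genes (x axis, 8000 Pa over 500 Pa; points: edgeR estimate from 3 against 3 libraries, bars: 95% interval), ordered within role classes that are given by colour; dashed lines mark a 2-fold difference. The interval of POLD2 alone leaves out 0, and the 8 regulators at the bottom have wide intervals, of which 2 lie inside the dashed lines.

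Promoters were searched for what the members share beyond the list. RefSeq promoter windows on GRCh38.p14, from 250 bases before to 50 after the start, were matched for 49 of 57 members by symbol. The letters of the E2F motif, searched as TTTCCCGC, TTTCGCGC, TTTGCCGC or TTTGGCGC on either strand, were in 24 of the 49 windows (49.0%), in 3.33% of all 27305 windows and in 5.59% of the 8750 windows of tested genes. By class they were in 7 of 11 licensing, 3 of 5 helicase activation, 4 of 8 polymerase, 4 of 12 fork, 2 of 6 chromatin and 4 of 7 regulator windows. A match is a description of the letters and not a binding site. Printed here are 40-base stretches of the 7 members whose match, with its flanks, lay before the start and outside the exons annotated in GENCODE 29. Capitals mark the motif letters, in the order 5′ to 3′ of the gene, and letters found on the reverse strand appear as their complement (GCGGGAAA for TTTCCCGC, GCGCCAAA for TTTGGCGC). For MCM6, with several matches, the one farthest from the start is marked. A further match in the same stretch overlaps it and is not marked (GCGCGAAA, for TTTCGCGC on the reverse strand). The 7 are given from the lowest to the highest fold change, since they lay on both sides of 0.
CDC25A: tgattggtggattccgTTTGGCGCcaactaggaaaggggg
E2F2: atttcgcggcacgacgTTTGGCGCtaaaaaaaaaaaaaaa
MCM3: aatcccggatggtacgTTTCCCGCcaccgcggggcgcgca
PCNA: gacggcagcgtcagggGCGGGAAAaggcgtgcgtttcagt
MCM6: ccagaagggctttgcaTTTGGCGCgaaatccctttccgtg
POLA1: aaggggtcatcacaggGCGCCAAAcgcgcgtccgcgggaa
E2F3: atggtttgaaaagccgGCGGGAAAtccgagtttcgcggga
The stretches lie at chr3:48188438-48188477 (CDC25A, minus strand), chr1:23531252-23531291 (E2F2, minus strand), chr6:52284893-52284932 (MCM3, minus strand), chr20:5126658-5126697 (PCNA, minus strand), chr2:135876572-135876611 (MCM6, minus strand), chrX:24693765-24693804 (POLA1, plus strand) and chr6:20401810-20401849 (E2F3, plus strand). In that order the fold changes were -0.45, -0.26, -0.05, 0.01, 0.16, 0.17 and 0.23. The 24 members with a match had 13 fold changes above 0 and a median of 0.01, and the 25 without had 17 above 0 and a median of 0.06. So members that share the motif letters did not share a direction.

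Levels between genes were compared as CPM per kilobase of the longest basic transcript. Machinery genes had a median of 25.9 CPM per kb, G1/S regulators 2.86 CPM per kb and all tested genes 4.75 CPM per kb. The most abundant members were PCNA at 205 CPM per kb, POLD2 at 204, MCM7 at 179.8 and MCM5 at 115. At the other end stood CCNE1 at 1.40 CPM per kb, CDC25A at 1.59 and E2F3 at 1.75. The class medians were 39.4 CPM per kb for fork genes, 32.8 for licensing, 15.7 for helicase activation, 13.1 for chromatin factors and 12.3 for polymerases. The lowest machinery class median stood above the highest regulator, E2F1 at 6.11 CPM per kb. Single machinery genes lay lower, down to ORC2 at 3.18 CPM per kb, so the machinery and the regulators overlapped gene by gene. Together the 57 genes took 0.627%, 0.594% and 0.501% of the counts at 500 Pa and 0.694%, 0.577% and 0.524% at 8000 Pa. These shares overlapped between the groups.

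In licensing, 13 genes were followed, and 8 of their fold changes lay above 0, with a median of 0.04. CDC6, the ATPase that joins the origin recognition complex to load MCM rings, had 195, 158 and 119 CPM at 500 Pa and 211, 151 and 139 CPM at 8000 Pa. The groups overlapped, with a fold change of 0.08 ± 0.28 (SE). CDT1, the loading partner that is destroyed once S phase starts (chr16:88803213-88809258 in GENCODE 29 on GRCh38), had 21.8, 10.96 and 22.4 CPM at 500 Pa and 5.91, 9.93 and 17.2 CPM at 8000 Pa. The lowest value was that of 8000 Pa replicate 1, the replicate 2 libraries lay close together, and the groups overlapped. The fold change of CDT1 was -0.74 ± 0.43 (SE). Its paired fold change was -0.80 with an unadjusted p of 0.0084 and an adjusted p of 0.261 in edgeR.

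Among the helicase subunits, MCM5 (chr22:35400063-35425430) had 562, 339 and 569 CPM at 500 Pa and 245, 318 and 408 CPM at 8000 Pa. Each 8000 Pa library lay below the 500 Pa library of its own number, yet 500 Pa replicate 2 lay below 8000 Pa replicate 3. The fold change of MCM5 was -0.60 ± 0.29 (SE), and the paired adjusted p in edgeR was 0.313. MCM7, the most abundant licensing gene, had 670.4, 504 and 692 CPM at 500 Pa and 417, 479 and 564 CPM at 8000 Pa. It too was lower in each pair, with overlapping groups and a fold change of -0.35 ± 0.25 (SE). The other 4 helicase subunits had fold changes between -0.13 (MCM2) and 0.28 (MCM4). The 4 origin recognition genes ORC1, ORC2, ORC3 and ORC6 lay between 0.01 and 0.34, and GMNN, the CDT1 inhibitor, had a fold change of 0.19.

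Helicase activation was represented by MCM10, CDC45 and the 4 GINS genes, with a median fold change of 0.08. GINS2, the most abundant of them (chr16:85676198-85690073), had 267, 169.7 and 277 CPM at 500 Pa and 142, 166 and 196 CPM at 8000 Pa. Replicates 1 and 3 were higher at 500 Pa, while the replicate 2 libraries were nearly level. The fold change of GINS2 was -0.50 ± 0.27 (SE). Its complex partner GINS1 (chr20:25407727-25452628) had 39.8, 47.1 and 25.3 CPM at 500 Pa and 63.8, 49.5 and 43.5 CPM at 8000 Pa. Here the 8000 Pa library was the higher one in each pair, the groups overlapped, and the fold change was 0.48 ± 0.31 (SE). CDC45, which bridges the helicase ring, had a fold change of -0.02 and MCM10 0.29.

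For the 9 polymerase and primase genes the median fold change was 0.07. POLD2, a regulatory subunit of the lagging-strand polymerase delta (chr7:44114681-44124358), had 596, 327 and 754 CPM at 500 Pa and 228, 278 and 462 CPM at 8000 Pa. The 500 Pa library was the higher one in each pair, and 500 Pa replicate 2 lay within the 8000 Pa range. The fold change was -0.79 ± 0.34 (SE), the largest among the members, with an unadjusted p of 0.0381 and an adjusted p of 1.0 in edgeR. The paired fit gave -0.77 with an adjusted p of 0.117, and with a pair left out the smallest adjusted p of any member was 0.814 without replicate 1 (POLD2), 0.0835 without replicate 2 (POLD2) and 0.973 without replicate 3 (CDT1). POLD1, the catalytic subunit of the same polymerase, had a fold change of -0.38, and the accessory subunit POLD3 had 0.11. The catalytic subunit of the leading-strand polymerase, POLE, had 0.25. In the polymerase alpha-primase complex, which starts each new strand, the 4 genes lay between -0.23 (POLA2) and 0.17 (POLA1).

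The 15 fork genes had 11 fold changes above 0 and a median of 0.09. PCNA, the clamp that holds polymerases on DNA, had 310.2, 314 and 210.1 CPM at 500 Pa and 329, 294 and 217 CPM at 8000 Pa. Its groups overlapped almost wholly, and the fold change was 0.01 ± 0.27 (SE), with a 95% interval from -0.56 to 0.58. The clamp loader subunit RFC5 had 92.4, 93.0 and 94.6 CPM at 500 Pa and 107, 95.3 and 96.6 CPM at 8000 Pa. Its groups did not overlap, but the lowest 8000 Pa value was within 1 CPM of the highest 500 Pa value, and the fold change was 0.09 ± 0.24 (SE). TIMELESS, which with TIPIN keeps polymerase and helicase together (chr12:56416373-56449403), had 94.6, 109 and 78.5 CPM at 500 Pa and 122, 127 and 119 CPM at 8000 Pa. All 8000 Pa libraries lay above all 500 Pa libraries, with a fold change of 0.39 ± 0.25 (SE) and an unadjusted p of 0.14. RFC5 and TIMELESS were the 2 of 57 members (3.51%) without overlap, beside 6.87% of all tested genes and 4.02% that were higher at 8000 Pa in this sense.

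DNA2, a nuclease that trims flaps on the lagging strand, had 17.6, 15.4 and 10.9 CPM at 500 Pa and 33.7, 17.1 and 9.17 CPM at 8000 Pa. The highest value was that of 8000 Pa replicate 1 and the lowest that of 8000 Pa replicate 3, and the fold change was 0.45 ± 0.44 (SE). TIPIN, the partner of TIMELESS, had a fold change of -0.07. The 3 RPA genes lay between -0.13 and 0.12, and the maturation enzymes FEN1 and LIG1 had 0.14 and -0.06.

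Chromatin factors that follow the fork had a median fold change of 0.08 over 6 genes, of which 4 lay above 0. NASP, a chaperone for newly made histone H3, had 101, 85.2 and 64.7 CPM at 500 Pa and 159, 101 and 76.1 CPM at 8000 Pa. It was higher at 8000 Pa in each pair, the groups overlapped, and the fold change was 0.42 ± 0.31 (SE). DNMT1, the maintenance DNA methyltransferase, had 137, 173 and 96.5 CPM at 500 Pa and 151, 148 and 144 CPM at 8000 Pa. All 8000 Pa values lay inside the 500 Pa range, with a fold change of 0.12 ± 0.27 (SE). UHRF1, which guides DNMT1 to newly copied DNA, had a fold change of 0.31, the assembly factor subunits CHAF1A and CHAF1B had 0.03 and -0.09, and SLBP, which binds histone messenger RNA, had -0.29.

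Among the 8 G1/S regulators, 5 fold changes lay above 0 and the median was 0.09. The 2 cyclin E genes encode the activators of the kinase that opens S phase. CCNE1 had 2.12, 2.79 and 3.72 CPM at 500 Pa and 2.80, 3.06 and 2.69 CPM at 8000 Pa. These values rest on 180 counts over all 6 libraries, the groups overlapped, and the fold change was 0.01 ± 0.44 (SE). CCNE2 had 20.1, 8.50 and 8.43 CPM at 500 Pa and 23.0, 13.0 and 7.18 CPM at 8000 Pa. Its highest values were those of the replicate 1 libraries at both stiffnesses, and the fold change was 0.21 ± 0.47 (SE). CDC25A, the phosphatase that activates the cyclin E kinase, had 4.97, 9.05 and 6.86 CPM at 500 Pa and 5.19, 5.81 and 4.19 CPM at 8000 Pa. Its groups overlapped at a fold change of -0.45 ± 0.39 (SE), the largest among the regulators.

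The activating E2F factors did not separate by stiffness either. E2F1 had 12.7, 19.9 and 15.1 CPM at 500 Pa and 7.19, 24.6 and 12.3 CPM at 8000 Pa. Both the lowest and the highest value belonged to 8000 Pa libraries, and the fold change was -0.12 ± 0.43 (SE). E2F2, the regulator of highest mean CPM, had 26.8, 21.8 and 28.01 CPM at 500 Pa and 15.5, 26.2 and 22.5 CPM at 8000 Pa, with overlapping groups and a fold change of -0.26 ± 0.32 (SE). E2F3 had a fold change of 0.23, and CDC7 and DBF4, the kinase and its activator that fire licensed origins, had 0.24 and 0.17.

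Set side by side, the machinery had a median fold change of 0.07 (31 of 49 above 0) and the regulators 0.09 (5 of 8 above 0). In the same-numbered pairs, from log2 CPM with a prior count of 2, the machinery medians were 0.14, -0.07 and 0.08 for replicates 1, 2 and 3. The regulators had 0.24, 0.23 and -0.38, with 6, 6 and 1 of 8 above 0. So the regulators leaned to 8000 Pa in replicates 1 and 2 and to 500 Pa in replicate 3, and the median of the pooled machinery stayed nearer to 0 in each. Its smaller classes also moved. In the replicate 3 pair the chromatin factors had a median of 0.33 (5 of 6 above 0) and the polymerases -0.21 (3 of 9 above 0). Licensing, helicase activation and fork genes had 0.12, 0.18 and 0.05 there. The median SE was 0.44 for regulators and 0.29 for machinery, and the 95% interval lay inside 2-fold for 2 of 8 regulators (CCNE1 and E2F2) and for 33 of 49 machinery genes. The difference between the sets was not tested, since genes are not replicates.

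**Figure D2:**
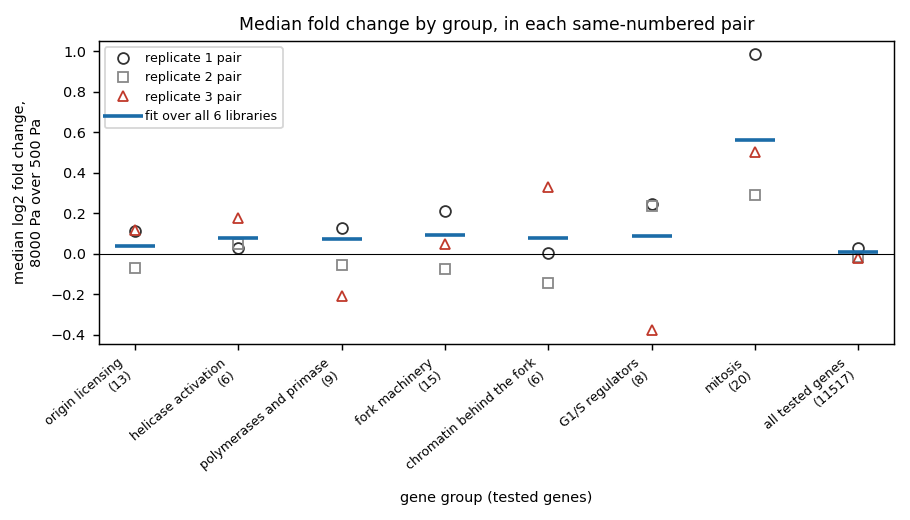
Median log2 fold change (y axis, 8000 Pa over 500 Pa) of each role class, of 20 mitosis genes and of all tested genes (x axis, number of genes in brackets); open symbols are same-numbered pairs of libraries and the blue line is the fit over all 6 libraries. Class medians of the fit lie between 0.04 and 0.09, the regulators stand at -0.38 in the replicate 3 pair, and the mitosis median is 0.56.

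Of the 57 members, 14 (24.6%) kept 1 direction in all 3 pairs, beside 29.8% of all tested genes (14.6% higher and 15.2% lower at 8000 Pa). The 7 higher at 8000 Pa were MCM10, GINS1, GINS4, POLE, RFC5, TIMELESS and NASP. The 7 lower were CDT1, MCM5, MCM7, GINS2, POLD1, POLD2 and RPA2. No regulator was among them. Median sizes of the pair differences, regardless of sign, were 0.35, 0.14 and 0.26 for replicates 1, 2 and 3 among members and 0.52, 0.24 and 0.33 among all genes. These sizes were not adjusted for the higher abundance of the members.

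The signs of the fold changes were also counted by complex, without a test. Fold changes above 0 numbered 2 of 6 in the MCM2-7 helicase, 2 of 4 in GINS, 1 of 3 in polymerase delta, 2 of 4 in polymerase alpha-primase and 2 of 3 in RPA, against 4 of 4 ORC genes, 4 of 5 RFC genes and both POLE and POLE2. Some lay close to 0 (0.007 for ORC3, 0.0008 for RFC2), and of all members POLD2 alone had a 95% interval without 0. The counts also changed with an offset for transcript GC content, given below. ORC1, ORC3, ORC6, RFC4, RFC5, POLE2, MCM6, POLA1, POLD3, RPA1 and RPA3 then fell below 0, and MCM2 rose above it. Within the helicase, MCM5 and MCM7 were both lower at 8000 Pa in each pair. The following ratios were chosen after their values were seen and carry no test. The CPM ratio of MCM4 to MCM5 was 0.472, 0.816 and 0.256 at 500 Pa and 1.45, 0.833 and 0.529 at 8000 Pa. That of GINS1 to GINS2 was 0.149, 0.277 and 0.0913 against 0.449, 0.298 and 0.221, and that of POLD3 to POLD2 was 0.0578, 0.107 and 0.0503 against 0.222, 0.133 and 0.0606. In each of these ratios 8000 Pa replicate 1 was the highest library and 500 Pa replicate 3 the lowest, and the groups overlapped. The ratio of CDT1 to its inhibitor GMNN ran the other way, at 0.273, 0.139 and 0.387 against 0.0584, 0.112 and 0.302.

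**Figure D3:**
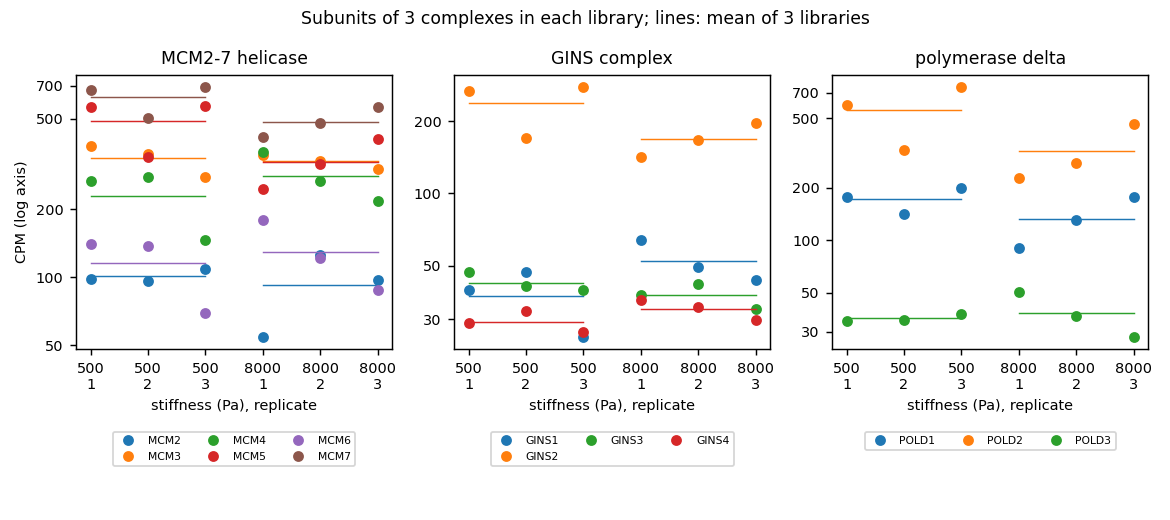
CPM (log axis) of the subunits of the MCM2-7 helicase, the GINS complex and polymerase delta in each library (x axis, stiffness in Pa above the replicate number); lines mark the mean of 3 libraries. MCM5, MCM7, GINS2 and POLD2 are lowest in 8000 Pa replicate 1, where MCM4 and GINS1 are highest.

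The division of subunits in the helicase and polymerase delta went with the base composition of the transcripts in the replicate 1 pair. Of the members with fold changes of -0.35 or below that were not regulators, 5 had GC-rich transcripts, at 64.9% GC for CDT1, 65.0% for POLD1, 59.1% for POLD2, 57.6% for MCM7 and 56.6% for MCM5, against a median of 48.3% over all tested genes, while GINS2 stood near that median at 49.1%. Across the 57 members, the log2 ratio of the replicate 1 pair and transcript GC content had a Spearman rho of -0.69, as a description over genes that share libraries. In the replicate 2 and 3 pairs rho was -0.05 and -0.00. Over 11003 tested genes the values were -0.62, 0.06 and 0.02. The 23 members of at least 50% GC had a median pair ratio of -0.30 in replicate 1, and the 34 members below it had 0.31. By library, the deviation from each gene's mean ran against GC most in 8000 Pa replicate 1 (rho -0.87) and with it most in 8000 Pa replicate 3 (0.80) and 500 Pa replicate 3 (0.65).

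With a per-library GC offset in the fit, rho between the members' fold change and GC went from -0.54 to -0.12, and the medians of the GC-rich and GC-poor members were -0.04 and -0.03. The offset was fitted to the GC trend of these same libraries, so this levelling was built in and is not a test. The fold changes of POLD2, GINS2, MCM5 and CDT1 under that offset were -0.60, -0.64, -0.49 and -0.49, those of MCM7 and POLD1 were -0.19 and -0.06, and TIMELESS stood at 0.36. Among the members with values given in every library, CDC6, PCNA and RFC5 moved to the other side of 0, at -0.10, -0.17 and -0.08, and E2F1 did too, at 0.11. Of the other members, ORC1, ORC3, ORC6, MCM6, POLA1, POLD3, POLE2, RFC4, RPA1 and RPA3 also fell below 0. MCM2 and LIG1 rose above it. Again 0 members were called, beside 0.0% of all genes unpaired and 0.703% paired, and the smallest adjusted p in edgeR was 0.807 unpaired and 0.109 paired. At an unadjusted p under 0.05 the paired fit with the offset held 8 members (14.0%), beside 12.5% of all genes. The 4 with higher values at 8000 Pa were GINS1, POLE, TIMELESS and UHRF1 (all genes 5.44%), and the 4 with lower values were MCM5, GINS2, POLD2 and RFC1 (all genes 7.09%), so the balance was not the 1 and 4 found without the offset and CDT1 was no longer among them.

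**Figure D4:**
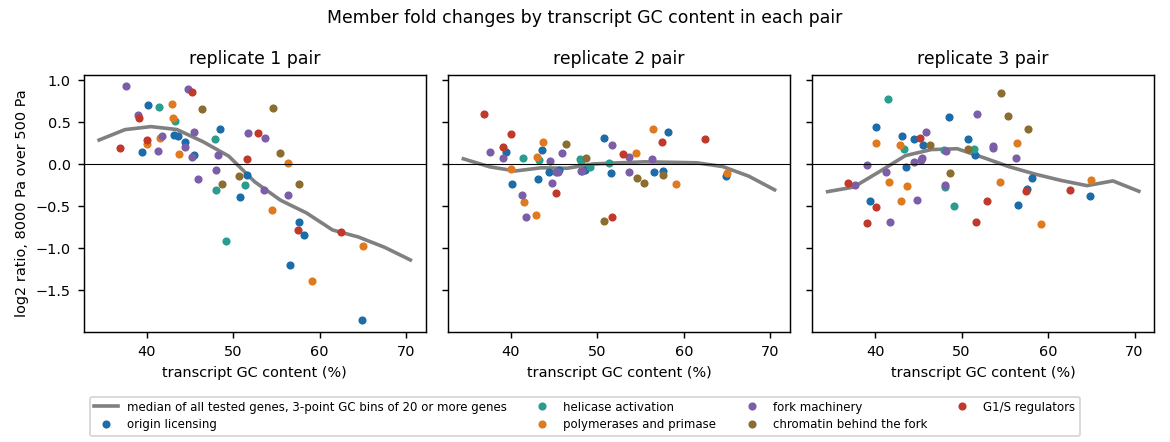
Log2 ratio of 8000 Pa over 500 Pa in each same-numbered pair (y axis) against transcript GC content in percent (x axis) for the 57 genes, coloured by role; the grey line is the median of all tested genes in 3-point GC bins holding at least 20 genes. In the replicate 1 pair the members follow the falling grey line (rho -0.69), and in the other pairs rho is -0.05 and -0.00.

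**Figure D5:**
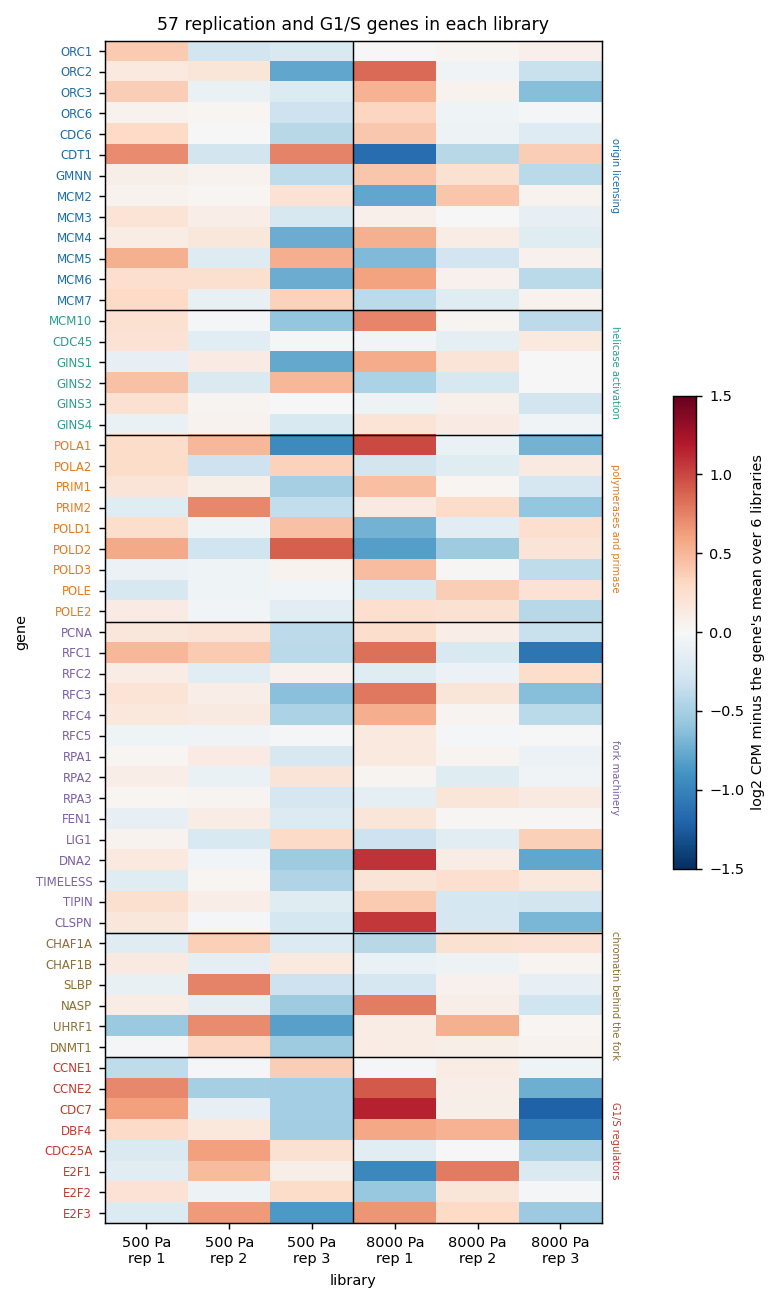
Log2 CPM of each of the 57 genes minus its mean over 6 libraries (colour scale), with genes in rows by role and libraries in columns. The 3 columns of each stiffness differ among themselves, most of all 8000 Pa replicate 1 from 8000 Pa replicate 3, and TIMELESS and RFC5 are the 2 rows in which all 8000 Pa libraries lie above all 500 Pa libraries.

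Other genes of the pathway, from lists chosen with earlier results of these data known, were read in the same fits. Of 22 further replication factors tested, 6 had fold changes above 0 and the median was -0.14 (-0.20 with the GC offset), on the other side of 0 from the members' 36 of 57 and 0.07. That difference was not tested. Of 20 genes of the cyclin D, RB and E2F pathway 12 lay above 0 (median 0.02), of 8 genes of S-phase nucleotide supply 3 (median -0.05), and of 9 S-phase checkpoint genes 5 (median 0.06). None of these passed in the unpaired or the paired fit of edgeR. CDK4, the cyclin D kinase, had a mean of 423 ± 142 CPM at 500 Pa and 275 ± 61.6 CPM at 8000 Pa (SD, n = 3), with a fold change of -0.62 ± 0.30 (SE). TK1, the thymidine kinase of S phase, had 803 ± 326 CPM and 584 ± 190.5 CPM, at -0.46 ± 0.33 (SE). With the GC offset CDK4 stood at -0.61 and TK1 at -0.13, and the replicate 2 pair of TK1 ran the other way, at 0.13. Fold changes and SE of the other genes named by the rule were 0.89 ± 0.44 for MCM9, a helicase related to MCM2-7, -0.53 ± 0.37 for RNASEH2C, a subunit of the nuclease that removes ribonucleotides from DNA, 0.69 ± 0.43 for the repressor E2F8, -0.68 ± 0.30 for the nucleotide pool enzyme DCTPP1, -0.19 ± 0.27 for the checkpoint clamp gene RAD1 and 0.26 ± 0.37 for the checkpoint kinase gene CHEK1.

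Beside them stood the 20 genes of a mitosis list, which includes CCNA2, TOP2A, MKI67 and FOXM1 and is not limited to genes that act only after replication. Their median fold change was 0.56, 19 of 20 lay above 0, and the pair medians were 0.98, 0.29 and 0.50. With the GC offset the median was 0.47, against -0.04 for the 57 members. The mitosis genes took 0.268%, 0.257% and 0.205% of counts at 500 Pa and 0.558%, 0.321% and 0.309% at 8000 Pa, without overlap. KIF20A, a kinesin of cell division, was the 1 of 20 that passed in the paired fit (fold change 0.88 ± 0.23 SE, edgeR adjusted p 0.0348 and 1.0 unpaired), where 0.53% of all genes did. With the GC offset in the paired fit, 2 of 20 passed, beside 0.703% of all genes: KIF20A at an edgeR adjusted p of 0.0175 and the spindle checkpoint kinase gene BUB1 at 0.0409 (0.0613 without the offset). Whether replication and mitosis genes differed was not tested. The mitosis windows held the E2F letters in 2 of 16 (12.5%), and the letters TTTGAA, a cell cycle promoter element, in 10 of 16 (62.5%) against 2 of 49 (4.08%) for the members. TTTGAA was in 9.54% of the windows of tested genes and in 15.4% of all windows.

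Some members share sequence with other genes, and the strand used in counting is not given in the sources used here. In GENCODE 29, 18 of 57 members share exonic bases with another gene. The largest overlaps were those of POLA2 (53.7% of its exonic bases, with AP000944.2), CCNE2 (47.5%, with INTS8 on the opposite strand) and MCM2 (30.7%, with an antisense gene), so their values are uncertain to that degree. Pseudogenes named after them exist in the annotation for 8 members, with 3 each for PCNA and RPA2, 2 for E2F3 and 1 each for DBF4, FEN1, POLD2, RFC3 and RFC5, and reads could be split or lost there.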

How the data were processed

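RNA sequencing of 6 libraries, 3 per stiffness, was analysed from the tables deposited for each library. The deposited count column holds whole-number counts per gene, not normalized, made per the submitters' processing notes with HISAT2 2.1.2 and HTSeq 0.11.4 on GRCh38. The same notes name limma and DESeq2. The authors' log2 column, filled for 8593 genes and 55 of the 57 members, was not used. Not given in the sources used here are strandedness, annotation release and RNA selection. Value columns of no sample numbered 0.

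The test was that of edgeR 4.0.16 (R 4.3.3) on the counts: filterByExpr (minimum count 10, minimum total 15), TMM scaling, the quasi-likelihood F test on stiffness alone and Benjamini-Hochberg adjustment over all 11517 tested genes with a threshold of 0.05. CPM below are scaled by TMM. A fit with the replicate number as a block was the alternative. Same-numbered libraries deviated together, with correlations across genes of 0.409, 0.184 and 0.516 for replicates 1, 2 and 3, each above the 0.1 required, so the numbers were taken to pair the samples. Replicate 2 did not stand out as a pair: 500 Pa replicate 2 correlated at 0.199 with 8000 Pa replicate 1, above its 0.184 with its own number, and the other unlike-numbered pairs lay between -0.499 and 0.0491. Residual degrees of freedom number 2 per gene in that fit. The labels do not say what replicates of 1 number share, and p-values measure the spread between these samples. No 2 libraries agreed within sampling noise (chi-square per degree of freedom of 11.6 or more), so none was counted as a copy.

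Coordinates, transcript length and GC content came from GENCODE 29 on GRCh38, found for 95.5% of tested genes. The GC offset was a spline of 5 degrees of freedom per library. Other alternatives were DESeq2 1.42.0 with and without the block, its size factors in edgeR, library size alone, no filter on low counts, and leaving out each library or pair. The steps were tested on simulated counts of 11350 genes, where 0 of 121 unpaired and 6 of 177 paired calls were false. The simulated replicate effect was shared within each same-numbered pair, as the paired fit assumes, and no GC trend was added. These counts therefore do not give the share of false calls in the real data. Members, lists and the split at 50% GC were chosen with earlier results of these data known. All members could be named. Values in every library are given for members past the threshold, members whose groups do not overlap, the member of highest CPM and of largest fold change in each class, and CCNE1, CCNE2, E2F1, CDC6, CDT1, PCNA and MCM5. GINS1 and the subunit ratios were added after their values were seen. Up to 2 genes of each other list, those of smallest unadjusted p in the unpaired fit, were named, as were mitosis genes that passed. Intervals and floors for single libraries cover counting error only.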

Additional observations from a re-analysis of the deposited data

How the results depend on the processing

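The count of members called was 0 under all alternatives run. The replicate block, which treats same-numbered libraries as pairs, gave 30 genes higher and 31 lower at 8000 Pa over the whole table, against 0 and 0 without it, and with the GC offset added 44 and 37. DESeq2 called 6 higher and 1 lower, DESeq2 with the block 22 and 20, and edgeR without the filter on low counts 6 and 2. With the block, 25 and 13 were called without replicate 1, 43 and 38 without replicate 2, and 8 and 4 without replicate 3. Leaving out 1 library without the block gave 0 higher and 0 to 1 lower. The block changed no call among the members.

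The members' median fold change, 0.07, was -0.040 with the GC offset and -0.036 with block and offset, 0.25 with library size alone (0.17 over all genes in that setting), and -0.089 to 0.20 when 1 library was left out. Class medians with library size alone were 0.21 for licensing, 0.24 for helicase activation, 0.25 for polymerases and 0.26 for fork genes. Helicase activation was -0.023 with the offset and -0.018 with block and offset, fork genes -0.058 with both, and polymerases -0.12 without the replicate 1 pair. With 1 library left out, they ran from -0.11 to 0.25 for licensing, -0.045 to 0.15 for helicase activation, -0.15 to 0.22 for polymerases, -0.11 to 0.20 for fork genes, -0.0054 to 0.29 for chromatin factors and -0.079 to 0.31 for regulators. The regulators' median, 0.09, was 0.32 without the replicate 3 pair, 0.02 with the offset and 0.27 with library size alone.

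Small fold changes crossed 0, given here for members with values in every library. With block and offset, CDC6 was -0.090, PCNA -0.16, RFC5 -0.082 and E2F1 0.039, and with the offset alone -0.10, -0.17, -0.083 and 0.11. E2F1 was 0.0041 with library size alone, and CCNE1 was -0.0032 in DESeq2 and -0.0061 with its size factors. Without the replicate 1 pair, PCNA was -0.0036, DNA2 -0.017, CCNE1 -0.15 and E2F1 0.034, and without the replicate 2 pair CCNE1 was -0.019. Leaving out 1 library gave -0.12 to 0.29 for CDC6, -0.12 to 0.20 for PCNA, -0.16 to 0.84 for DNA2, -0.016 to 0.34 for DNMT1, -0.18 to 0.27 for CCNE1, -0.31 to 0.79 for CCNE2 and -0.71 to 0.22 for E2F1. Over left-out libraries and pairs, CDT1 (-1.21 to -0.25), MCM5 (-0.84 to -0.27), POLD2 (-1.13 to -0.45), GINS2 (-0.70 to -0.24), TIMELESS (0.33 to 0.51), NASP (0.08 to 0.68), CDC25A (-0.65 to -0.22), MCM7 (-0.49 to -0.16) and E2F2 (-0.55 to -0.0039) kept their sign. The causes were not tested. Depth limits CCNE1 most among the named members, at 180 counts in all.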
